A study of Homo sapiens with 8 samples.

Results

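The genes described here make ribosomes. They are 40 genes for RNA polymerase I transcription, small nucleolar ribonucleoproteins (snoRNPs) and the assembly of the small and large ribosomal subunits, chosen by symbol. The choice was made with earlier results of these data known, so shares set beside those of all genes describe the list and do not test it. A gene counted as measured where at least 1 probe set (a group of short probes read as 1 value) named it and no other gene, and its probe set with the highest mean over the 8 arrays stood for it. By this rule 35 of the 40 were measured, among 19775 genes in all. NOP56, DKC1 and BOP1 are named only by probe sets that also name other genes, and GNL3 and DDX18 by none in the annotation used.

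The study hybridised RNA of 2 human colorectal adenocarcinoma cell lines to Affymetrix arrays, with 4 groups of 2 arrays. HT29 first spheres grew in DMEM-F12 with N2 supplement, bFGF at 10 ng/ml and EGF at 10 ng/ml, and HT29 parental cells grew in DMEM with 10% serum, so form of growth and medium change together and cannot be told apart. The SW480 Snail line expresses Snail (SNAI1, a transcriptional repressor of epithelial genes) according to its label, and the SW480 vector line carries the empty vector. Both are stable lines grown with 10% serum, and the sources used here give neither the promoter driving Snail nor the number of clones. The stated interest was in regulators of malignancy found in spheres and in the effect of overexpressing them. Nothing in the labels makes the replicates separate cultures, so p-values reflect only how far arrays differed, which may be technical. In such bulk RNA, fewer cells of a type and less RNA per cell cannot be told apart.

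Ribosome production starts in the nucleolus, where RNA polymerase I copies the ribosomal DNA into 1 long precursor RNA. Box C/D and box H/ACA snoRNPs modify that precursor, and a large set of assembly factors cuts and folds it with ribosomal proteins into the small and large subunits. The pathway is among the costliest of a growing cell, and MYC, which binds DNA with its partner MAX at the E-box CACGTG, is a known activator of many of its genes in colorectal tumours and elsewhere.

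The E-box was therefore looked for near the members' start sites, in RefSeq windows of 300 bases (250 before to 50 after the start, assembly GRCh38.p14). The motif reads the same on both strands, so 1 search covers both. Of the 35 measured members 30 had a window, and 14 of those 30 held the E-box in a window (46.7%). It was present in 8.77% of 27305 genes with a window and in 10.9% of the 15384 measured genes with a window. Windows were not found for NOP58, NOLC1, RRP12, RRP1B and RRS1. In 10 of the 14 members the motif began after the start site. The runs below are shown because they carry the motif in 5 members that were higher in spheres and in FBL, which was lower. Each has 12 bases on either side of the motif, 5′ to 3′ on the gene's own strand, with the E-box in capitals.
LTV1, chr6:143843354-143843383, plus strand: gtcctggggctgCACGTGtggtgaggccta
PNO1, chr2:68157885-68157914, plus strand: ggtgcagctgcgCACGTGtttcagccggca
BYSL, chr6:41921515-41921544, plus strand: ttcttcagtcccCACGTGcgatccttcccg
UTP20, chr12:101280083-101280112, plus strand: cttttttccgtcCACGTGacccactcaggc
GAR1, chr4:109815781-109815810, plus strand: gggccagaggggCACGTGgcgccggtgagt
FBL, chr19:39846356-39846385, minus strand: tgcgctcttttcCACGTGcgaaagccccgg

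In PNO1 the motif begins at base 10 from the start, in LTV1 and BYSL at base 29, in GAR1 at base 32 and in FBL at base 7, while in UTP20 it lies at base -10. NOP2, also higher in spheres, holds it at base 36, too near the window's end for a run of this length. A matching run of letters is not evidence of binding.

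**Figure D1:**
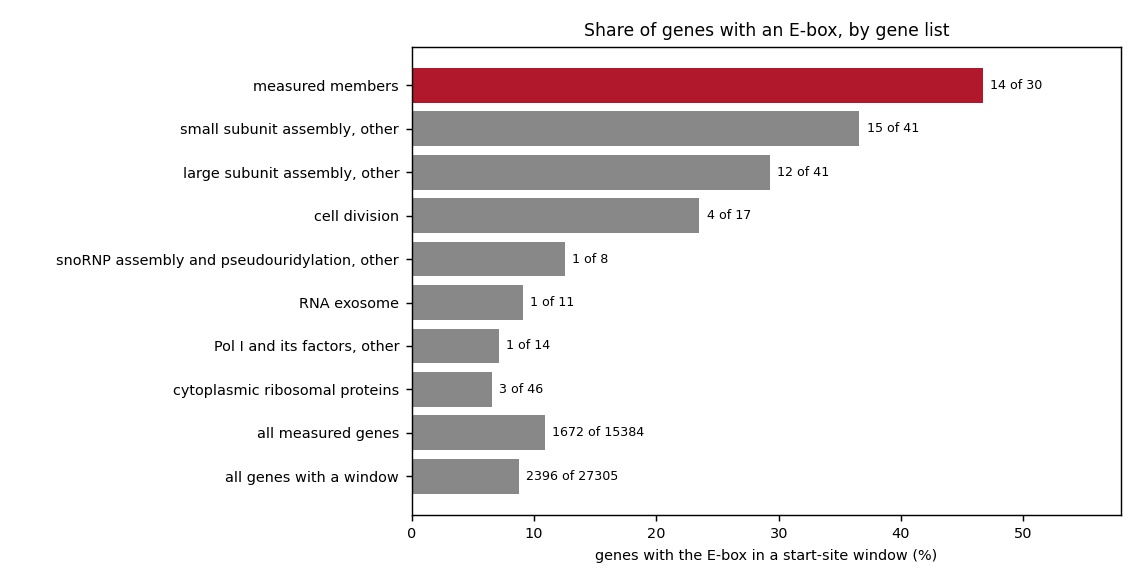
Bars give the percent of genes with the E-box CACGTG in a RefSeq start-site window, by gene list, with the counts printed beside them. The members stand at 46.7%, other small subunit factors at 36.6%, other large subunit factors at 29.3% and cytoplasmic ribosomal proteins at 6.52%.

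Among assembly factors outside the 40, the E-box was found in 36.6% of 41 small subunit genes and 29.3% of 41 large subunit genes. It was found in 23.5% of 17 cell division genes, in 7.14% of 14 other genes of RNA polymerase I and its factors, and in 6.52% of 46 cytoplasmic ribosomal protein genes. All these lists, like the members, were chosen by function and not by sequence.

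The values are log2 expression values from RMA, a method that corrects background, scales arrays to each other and combines the probes of a set. Array medians ran between 5.50 and 5.61 and the members' values between 6.69 and 13.47. The deposited distributions were not identical: upper quartiles ran from 7.36 to 7.42 in spheres and from 7.58 to 7.59 in parental cells. Values scaled between arrays carry no measure of the total RNA per cell. The cells' epithelial identity was checked first: EPCAM lay between 11.73 and 12.73 and KRT18 between 13.63 and 13.99 over the 8 arrays, while the leukocyte marker PTPRC lay between 4.60 and 5.13. Not every marker followed this order. The epithelial gene CDX2 had 6.37 and 6.04 in spheres and 6.36 and 6.93 in parental cells. COL1A1, a marker of other cell types, had 7.61 and 7.24 in spheres and 7.12 on both parental arrays. In SW480 CDX2 averaged 7.69 on the arrays labelled Snail and 7.75 on the vector arrays, and COL1A1 averaged 7.74 and 7.87. Other epithelial genes separated the lines: the adhesion molecule CDH1 was lower in vector than in HT29 parental cells by a log2 change of -3.38 ± 0.17, and villin (VIL1) by -2.60 ± 0.17, and in all 5 of 8 epithelial genes were lower and 1 higher. VIL1 was also lower in spheres than in parental cells (-0.77 ± 0.17, adjusted p = 0.0053), where 2 of the 8 rose and 1 fell. SNAI1 itself had 6.32 and 6.38 on the arrays labelled Snail, against 6.36 and 6.34 on the vector arrays, so this probe set did not show the labelled expression. Where its probes lie relative to the expressed construct was not analysed here, and a construct without that stretch would go unseen. Among epithelial genes, CDH1 (0.76 ± 0.17, adjusted p = 0.013), KRT8 (0.57 ± 0.12, adjusted p = 0.011) and KRT19 (0.49 ± 0.12, adjusted p = 0.019) were higher on the arrays labelled Snail than on the vector arrays and VIL1 was lower (-1.06 ± 0.17). Whether the label or the probed stretch is at issue was not tested. The line is therefore called the line labelled Snail. In spheres SNAI1 had 6.93 and 7.21, against 5.87 and 6.15 in parental cells (log2 change 1.07 ± 0.15, adjusted p = 0.00032).

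The 2 HT29 parental arrays stood apart from each other on these genes, which bears on every comparison that uses them. Of the 35 members, 34 were lower on parental array 2 than on parental array 1 (97.1%), with a median difference of -0.44 (log2), while 52.3% of all genes were lower there and their median difference was -0.02. NOB1, an endonuclease of late small subunit maturation, was the exception at 0.13. A difference of 1.25-fold or more downward, a limit set after the values were seen, was found for 25 of the 35 members (71.4%), against 13.1% of all genes. Between the 2 arrays of the other groups the members' median difference was 0.08 in spheres, 0.07 in the line labelled Snail and -0.04 in vector cells. Only 1 array stands on each side here, so the parental difference carries no test.

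TSR1, which occupies the maturing small subunit in the cytoplasm, differed most, with 8.01 on parental array 2 and 8.90 on array 1. NOP58, a core protein of box C/D snoRNPs, had 10.09 on array 2 and 10.94 on array 1. MRTO4, a large subunit assembly factor, had 9.12 on array 2 and 9.78 on array 1. The shift ran through all 5 roles, with medians between -0.47 for small subunit factors and -0.22 for RNA polymerase I. NOP2, with 8.54 and 8.62, and UBTF, with 7.46 and 7.55, were among the members that differed least.

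The same direction was seen in related genes outside the 40. On parental array 2, 46 of 48 other small subunit factors, 43 of 47 other large subunit factors, 15 of 17 other genes of RNA polymerase I and its factors, 10 of 11 other snoRNP genes and 12 of 13 exosome genes were lower. Cytoplasmic ribosomal proteins were not shifted in this way: 17 of 52 were lower, with a median of 0.02. Of 20 cell division genes, 19 were lower, with a median of -0.44, equal to that of the members. The array's controls for ribosomal RNA were also lower on array 2, with differences of -0.99 for 18S and -0.55 for 28S. The part of cell division or of ribosomal RNA signal in the members' difference was not tested.

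**Figure D2:**
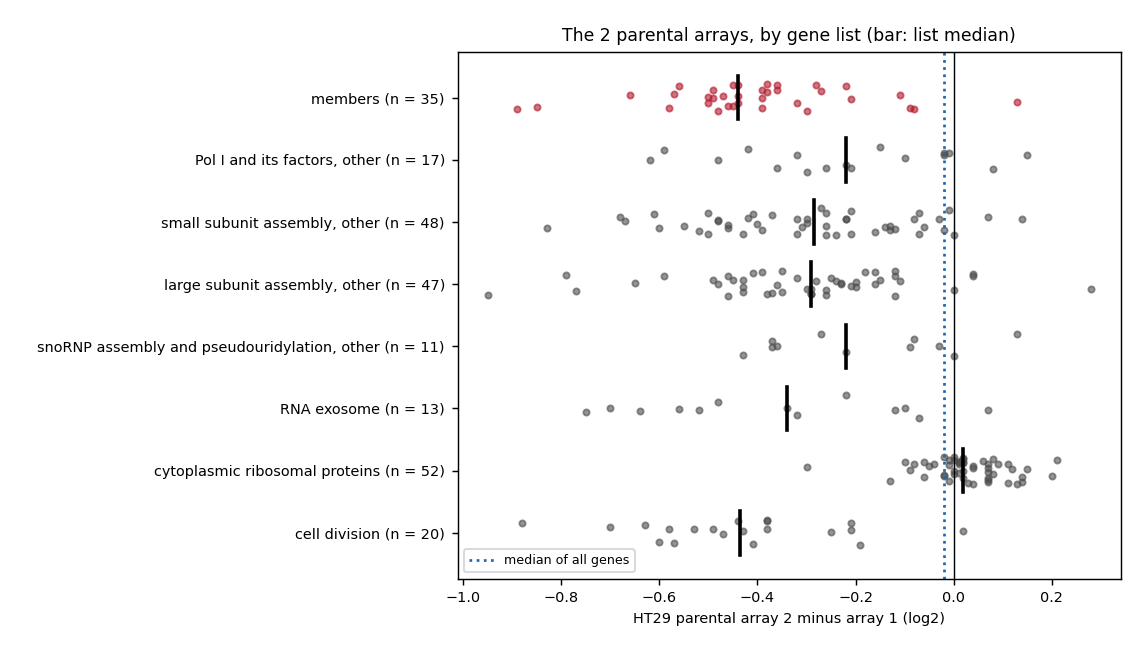
Each point is 1 gene, placed at HT29 parental array 2 minus array 1 (log2), by gene list; bars mark list medians and the dotted line the median of all genes, -0.02. All members but NOB1 lie below 0, around a median of -0.44, whereas ribosomal proteins centre on 0.02.

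Against both parental arrays together, HT29 spheres had higher transcripts of a group of subunit assembly factors and lower FBL, WDR12, UBTF and NPM1. In limma's test, with Benjamini-Hochberg adjustment over all genes and a threshold of 0.05, 12 of 35 members rose (34.3%) where 12.4% of all genes did. In the same test 4 members fell (11.4%) where 19.0% of all genes did, and 19 passed in neither direction. The members' median change was 0.29 (log2), against 0.04 for all genes. The sphere arrays lay wholly above the parental arrays for 15 members (32.4% of all genes) and wholly below for 9 (30.5% of all genes). The median rests on the parental arrays: it was -0.01 against array 1 alone and 0.44 against array 2 alone, and 0.19 without sphere array 2.

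**Figure D3:**
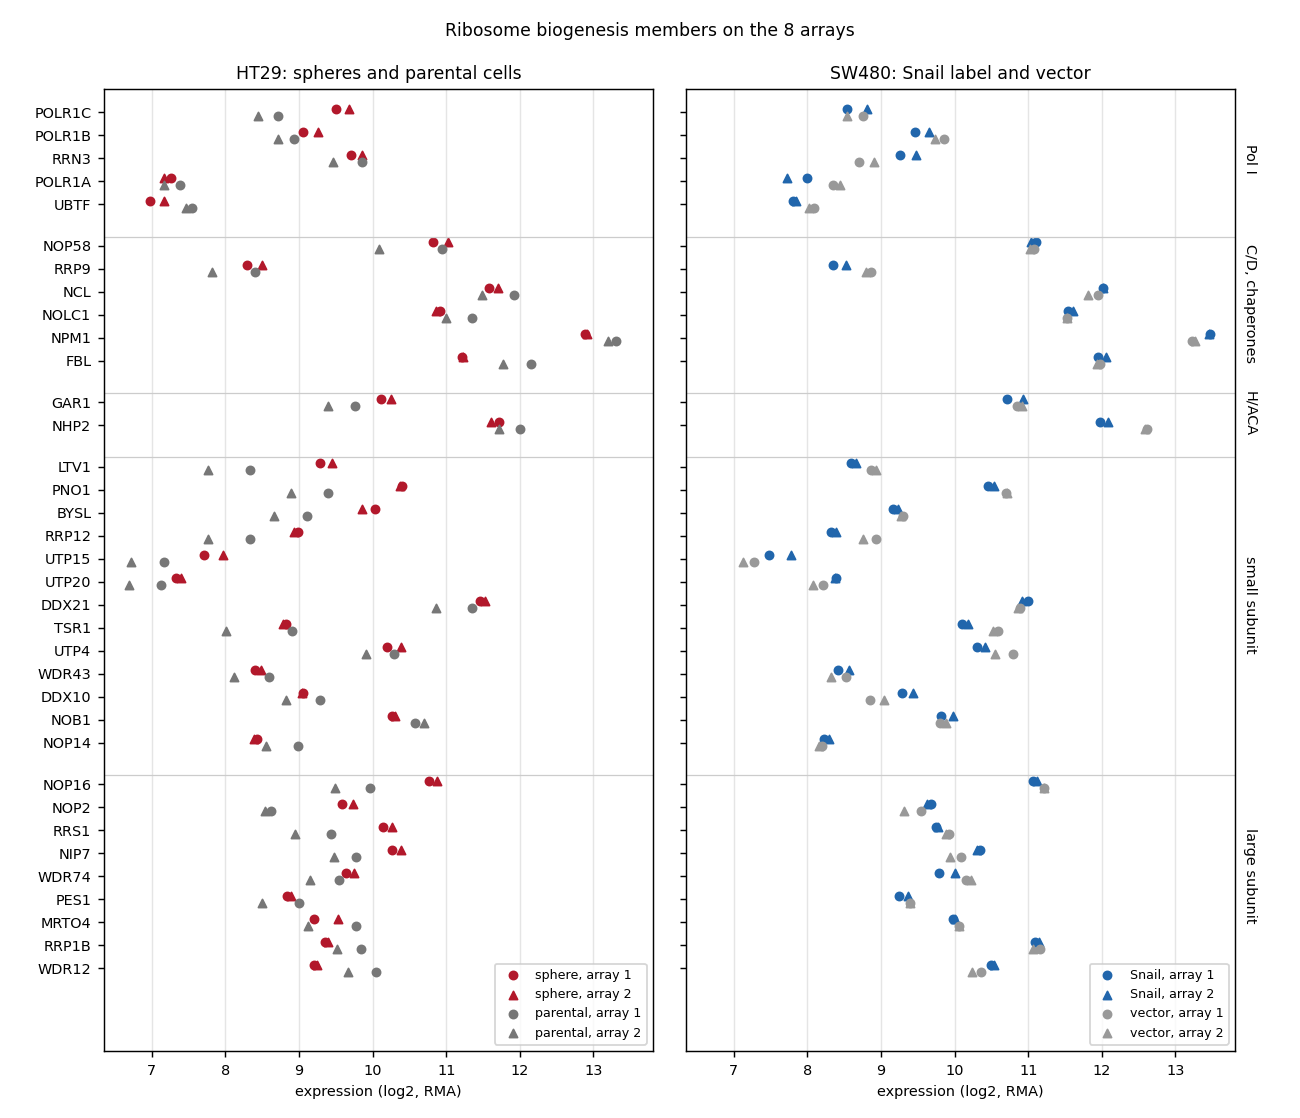
Expression (log2, RMA) of the 35 measured members on each of the 8 arrays, by role; circles are arrays 1 and triangles arrays 2 of a group. Sphere arrays lie close together, while the parental pair is spread, with array 2 to the left for every member but NOB1.

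Small subunit factors held the 2 largest rises. LTV1, which acts late in the export and maturation of the small subunit, had 9.29 and 9.45 in spheres, against 8.33 and 7.76 in parental cells. That is 2.50-fold higher in spheres (log2 change 1.32 ± 0.18 SE, limma adjusted p = 0.00027). PNO1, an RNA-binding partner of NOB1, had 10.40 and 10.37 in spheres, against 9.39 and 8.89 in parental cells (1.25 ± 0.16, adjusted p = 0.00022). For both genes the lowest sphere array exceeded the highest parental array by more than the 2 sphere arrays differed. BYSL, needed for small subunit processing, had 10.03 and 9.86 in spheres, against 9.11 and 8.66 in parental cells (1.06 ± 0.16, adjusted p = 0.00054). RRP12, a factor of subunit export, had 8.99 and 8.93 in spheres, against 8.33 and 7.77 in parental cells (0.91 ± 0.18, adjusted p = 0.0028). None of these groups overlapped. UTP15 (0.90 ± 0.18) and UTP20 (0.45 ± 0.15), components of the early processome on the precursor RNA, also rose. Together 6 of 13 small subunit members rose and 0 fell, where 12.4% of all genes rose and 19.0% fell. The changes ran from -0.36 for NOP14 to 1.32. NOB1 had -0.34 ± 0.13 and did not pass (adjusted p = 0.063).

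Among large subunit factors 4 of 9 rose and 1 fell, beside the same shares of all genes, 12.4% and 19.0%. NOP16 had 10.77 and 10.87 in spheres, against 9.97 and 9.49 in parental cells (1.09 ± 0.16, adjusted p = 0.00049). NOP2, a methyltransferase of the large subunit's ribosomal RNA, had 9.58 and 9.73 in spheres, against 8.62 and 8.54 in parental cells (1.07 ± 0.13, adjusted p = 0.00016). NOP2 was among the members whose parental arrays were closest, so its change hardly depends on which of them is used. RRS1 (1.01 ± 0.16) and NIP7 (0.69 ± 0.14), both assembly factors of the large subunit, rose as well. WDR12 forms the PeBoW complex with PES1 and BOP1, and went the other way, with 9.20 and 9.24 in spheres, against 10.05 and 9.66 in parental cells (-0.64 ± 0.15, adjusted p = 0.0081). Its partner PES1 had 8.84 and 8.89 in spheres, which lay between the parental values of 9.00 and 8.50, and BOP1 was not measured.

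Of the 5 genes of RNA polymerase I transcription, POLR1C rose and UBTF fell. POLR1C, a subunit shared by RNA polymerases I and III, had 9.50 and 9.68 in spheres, against 8.71 and 8.44 in parental cells (1.02 ± 0.16, adjusted p = 0.00064). UBTF, which binds the ribosomal DNA and opens it for transcription, had 6.98 and 7.16 in spheres, against 7.55 and 7.46 in parental cells (-0.44 ± 0.12, adjusted p = 0.022). The arrays of neither gene overlapped between the groups, but the fall of UBTF was lost against parental array 2 alone (adjusted p = 0.066). The largest subunit, POLR1A, had 7.26 and 7.16 in spheres, against 7.39 and 7.17 in parental cells (-0.07 ± 0.14). The next largest, POLR1B, had 9.05 and 9.26 in spheres, against 8.93 and 8.72 in parental cells (0.33 ± 0.14, adjusted p = 0.10). The initiation factor RRN3 had 9.71 and 9.86 in spheres, against 9.85 and 9.46 in parental cells (0.13 ± 0.16). None of these last 3 passed the test, and POLR1A and RRN3 overlapped between the groups. POLR1B passed with the mean of its 4 probe sets (0.56, adjusted p = 0.0056).

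Of the 6 measured box C/D proteins and nucleolar chaperones, 2 fell and 0 rose, where 19.0% of all genes fell and 12.4% rose. FBL (fibrillarin), the methyltransferase of box C/D snoRNPs, had 11.22 and 11.23 in spheres, against 12.15 and 11.77 in parental cells (-0.74 ± 0.15, adjusted p = 0.003). NPM1 (nucleophosmin), a nucleolar chaperone, had 12.88 and 12.91 in spheres, against 13.31 and 13.20 in parental cells (-0.36 ± 0.12, adjusted p = 0.043). The sphere arrays of both genes were nearly equal and lay below both parental arrays, but the call of NPM1 rested on the parental array used. Nucleolin (NCL), an abundant nucleolar RNA-binding protein, had 11.58 and 11.70 in spheres, against 11.92 and 11.48 in parental cells (-0.06 ± 0.16), so its groups overlapped. The U3 snoRNP protein RRP9 (0.29 ± 0.18) and NOP58 (0.41 ± 0.23) had spread parental values and did not pass. Of the box H/ACA proteins, which serve pseudouridylation, GAR1 rose (0.61 ± 0.15, adjusted p = 0.011) and NHP2 had -0.20 ± 0.14. DDX10, a helicase of small subunit processing, had the smallest change, with 9.06 and 9.04 in spheres between parental values of 9.28 and 8.82.

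**Figure D4:**
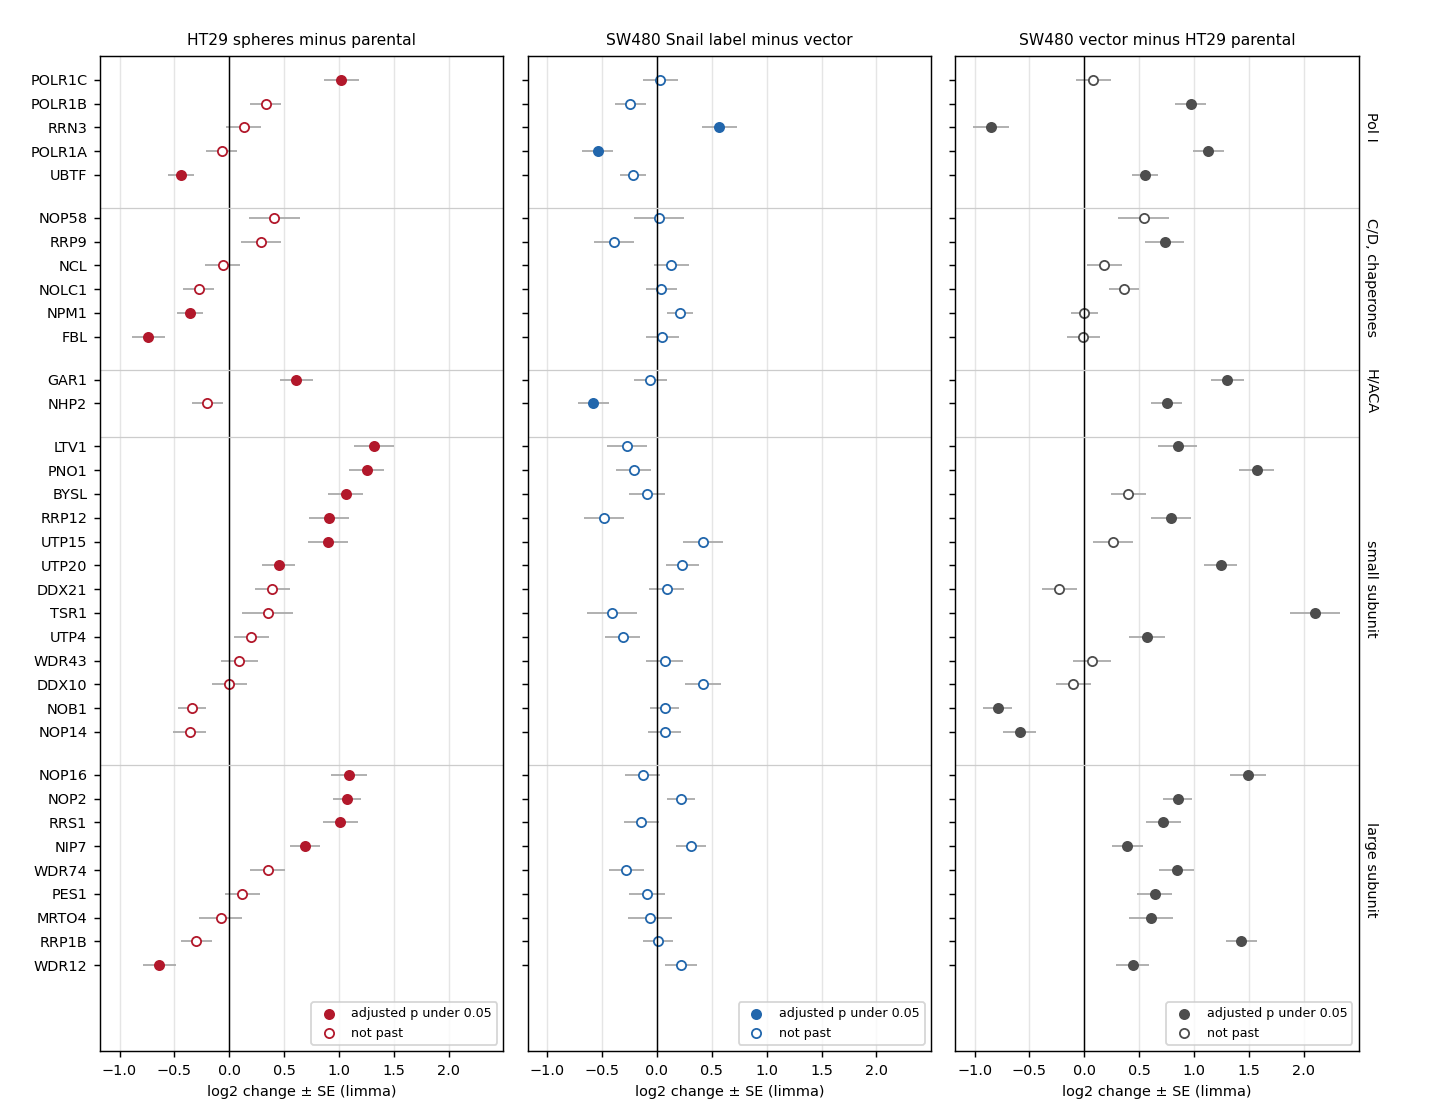
Log2 change ± SE from limma for the 35 members in 3 comparisons; filled points passed an adjusted p of 0.05. In spheres 6 of 13 small and 4 of 9 large subunit factors rose, as did 1 of 5 RNA polymerase I genes and 1 of 2 box H/ACA genes. Few members passed for the line labelled Snail. All 9 large subunit factors were higher in vector than in HT29 parental cells, 4 of them (PES1, WDR12, NIP7 and MRTO4) not under every alternative.

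Because the parental arrays differ, spheres were also set against each of them alone, the lone array being assumed to vary as the other arrays do. The parental pair differed more than the other pairs (members' median -0.44, against 0.08, 0.07 and -0.04), so the SE of these fits may be too small. For LTV1 the SE was 0.14 here and 0.18 with both parental arrays. Both fits use the same 2 sphere arrays, so a gene that passes in both is not a repeat observation. Against parental array 1 alone 10 members were higher (11.1% of all genes) and 7 lower (17.8% of all genes). Against parental array 2 alone 17 were higher (11.7% of all genes) and 2 lower (18.1% of all genes). The same 10 genes passed upward against either array: POLR1C, UTP15, RRP12, BYSL, LTV1, PNO1, NOP2, NOP16, RRS1 and NIP7. FBL and WDR12 passed downward against either. For LTV1 the change was 1.03 ± 0.14 against array 1 and 1.61 ± 0.14 against array 2, and for NOP2 it was 1.03 ± 0.15 and 1.11 ± 0.15. FBL had -0.93 ± 0.13 against array 1 and -0.55 ± 0.13 against array 2.

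Other calls depended on the parental array. NOP58, RRP9, GAR1, UTP20, TSR1, DDX21 and WDR74 were higher against array 2 only. UBTF, NOLC1, NPM1, NOP14 and RRP1B were lower against array 1 only. NOP58 had -0.01 ± 0.14 against array 1 and 0.83 ± 0.14 against array 2 (adjusted p = 0.0031). TSR1 had -0.09 ± 0.13 against array 1 and 0.80 ± 0.13 against array 2 (adjusted p = 0.0023). For 9 members the 2 changes had opposite signs, and for 6 both sphere arrays lay between the 2 parental arrays. Calls for GAR1 and UTP20, 2 of the 12 rises, and for UBTF and NPM1, 2 of the 4 falls, thus rested on the parental array used. The count of falls was 1 without sphere array 1. Averaging the probe sets of a gene also ended the calls of UBTF (-0.30) and WDR12 (-0.38), and quantile normalisation those of UBTF (-0.24) and NPM1 (-0.33). Among the 8 fits that each left out 1 array, NPM1 passed only without parental array 2 and UTP20 only without parental array 1.

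**Figure D5:**
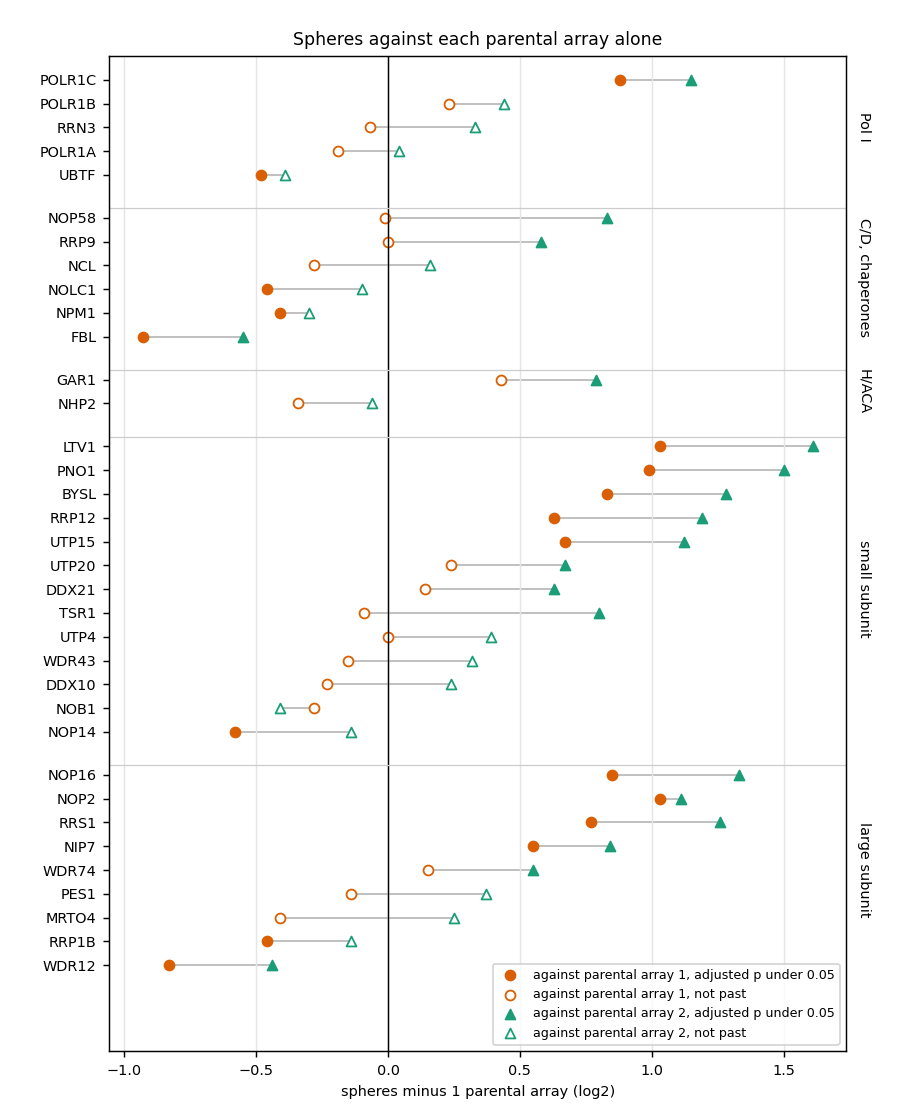
Log2 change of the 2 sphere arrays against parental array 1 alone (circles) and array 2 alone (triangles) for each member, filled where limma's adjusted p was under 0.05. The 10 genes with both symbols filled right of 0 include LTV1, PNO1, NOP2 and POLR1C, while NOP58 and TSR1 sit near 0 against array 1.

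Different probe sets of a gene mostly moved alike in spheres, but less so between the line labelled Snail and vector cells. There those of POLR1A gave -0.54, 1.00 and 0.00, and those of WDR12 gave 0.22, 0.26 and -0.71. Of the 22 members with more than 1 probe set, 5 had probe sets of both signs in spheres. These were UBTF (-0.56 to 0.07), NOLC1 (-0.28 to 0.37), NCL (-0.06 to 0.23), RRP1B (-0.30 to 0.45) and PES1 (-0.18 to 0.12). Probe sets of PNO1 ran from 0.89 to 1.45, those of NOP16 from 0.09 to 1.09 and those of RRP12 from 0.07 to 0.91. With the mean of the probe sets NOP16 rose by 0.57 (adjusted p = 0.0086) and RRP12 by 0.38 (adjusted p = 0.019). For 15 members the probe set used carries the suffix that Affymetrix gave to probes shared by several transcripts, so near-identical copies may add to the signal.

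Related genes outside the 40 were read by the same test in spheres, where 12.4% of all genes rose and 19.0% fell. Counts near those shares are not read as results about a list. Other small subunit factors had 16 higher and 1 lower of 48, and other large subunit factors 13 higher and 7 lower of 47. RCL1, a cyclase-like small subunit factor, rose by 0.99 ± 0.12, and DDX24, a helicase, by 1.00 ± 0.12. Both lists moved with the parental array. Small subunit factors had 7 higher and 4 lower against array 1 alone and 21 higher and 0 lower against array 2 alone, and large subunit factors had 7 higher and 9 lower against array 1 and 16 higher and 3 lower against array 2. They had medians of 0.04 and -0.04 against array 1 and 0.40 and 0.18 against array 2. Among 17 other genes of RNA polymerase I and its factors, 3 were higher and 4 lower. POLR1G, a subunit of the enzyme, had 10.71 and 10.82 in spheres, against 9.57 and 8.98 in parental cells (1.49 ± 0.18, adjusted p = 0.00015). TCOF1 (treacle), a nucleolar partner of UBTF, had 7.22 and 7.31 in spheres, against 8.28 and 7.98 in parental cells (-0.87 ± 0.15, adjusted p = 0.0016). Of 11 other snoRNP genes 1 was higher and 3 lower, among them the assembly helicase RUVBL1, with 8.78 and 9.08 in spheres, against 10.53 and 10.44 in parental cells (-1.55 ± 0.14). Of 13 exosome genes 2 were higher and 3 lower, with DIS3 at 0.52 ± 0.12 and EXOSC8 at -1.13 ± 0.21.

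Genes for the ribosomal proteins themselves showed no rise past the threshold. Of 52 measured cytoplasmic ribosomal protein genes, out of 78 listed, 0 rose and 12 fell in spheres, with a median of -0.27, beside 19.0% of all genes that fell. The count of falls was 6 against parental array 1 alone and 10 against array 2 alone. RPL3 had 12.37 and 12.46 in spheres, against 13.23 and 13.21 in parental cells (-0.80 ± 0.12, adjusted p = 0.00054). Unlike the assembly factors, this list had nearly the same median against either parental array, -0.24 against array 1 and -0.28 against array 2. Cell division genes fell throughout, 20 of 20, with a median of -1.57. MYC had 12.51 and 12.26 in spheres, against 11.36 and 11.01 in parental cells (1.20 ± 0.15, adjusted p = 0.00019). MXD1, which competes with MYC for MAX, rose by 1.81 ± 0.20. The E-box was present in 6 of the 10 members that rose and had a window (60.0%), in 1 of 4 that fell (25.0%) and in 7 of 16 that did not pass (43.8%). Those 6 include GAR1 and UTP20, whose calls rested on the parental array used. For vector against parental cells it was present in 9 of 18 members that were higher, 1 of 3 lower and 4 of 9 that did not pass. Whether the E-box goes with a rise was not tested.

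Markers of other cell types were 3 higher and 0 lower of 13 in spheres. Their summed linear level was 8776 to 9084 in spheres and 7966 to 8228 in parental cells. LUM, a matrix proteoglycan of stromal cells, had 8.45 and 8.41 in spheres and 4.65 on both parental arrays, while the leukocyte gene PTPRC had 5.13 and 4.81 in spheres and 4.60 and 4.78 in parental cells. LYZ (lysozyme), which makes up most of that sum, had 12.90 and 12.99 in spheres and 12.85 and 12.90 in parental cells. Array values have no true 0. The spike-in control BioC was 10.01 ± 0.06 in spheres and 8.37 ± 0.03 in parental cells (SD, n = 2 each), a difference of 1.64, while BioB, BioD and Cre differed by 0.39, 0.14 and 0.09. The 3′ minus 5′ signal, a measure of RNA integrity, averaged 0.83 ± 0.16 in spheres and 0.62 ± 0.05 in parental cells for ACTB. For GAPDH it averaged 0.18 ± 0.05 and 0.19 ± 0.06. The part of these markers, of the spike-in, of RNA integrity, of MYC and of the cell division genes in the members' changes was not tested.

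In SW480 few members differed between the line labelled Snail and the vector line. In limma's test 1 of 35 was higher (2.86%), where 8.91% of all genes were, and 2 were lower (5.71%), where 7.34% of all genes were. The median was 0.01, as for all genes. The arrays of the 2 lines did not overlap for 12 members upward (31.2% of all genes) and 16 downward (29.2% of all genes). RRN3 had 9.26 and 9.48 in the line labelled Snail, against 8.70 and 8.90 in vector cells (0.57 ± 0.16, adjusted p = 0.037). NHP2 had 11.97 and 12.08 in the line labelled Snail, against 12.62 and 12.59 in vector cells (-0.58 ± 0.14, adjusted p = 0.016). POLR1A had 7.99 and 7.73 in the line labelled Snail, against 8.35 and 8.45 in vector cells (-0.54 ± 0.14, adjusted p = 0.027), but averaging its 3 probe sets gave 0.15. Each of these 3 calls was lost in at least 1 fit that left out an array. Without any single array of either SW480 line, or of the spheres, the count of higher members was 0. It was 2 without either parental array. The count of lower members was 4 without either parental array, 1 without Snail array 1, and 0 without Snail array 2 or either vector array.

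The remaining members of that comparison lay between -0.48 and 0.42. FBL had 11.95 and 12.06 in the line labelled Snail, against 11.97 and 11.94 in vector cells (0.05 ± 0.15). NPM1 had 13.47 and 13.45 in the line labelled Snail, against 13.22 and 13.27 in vector cells (0.21 ± 0.12). NCL had 12.02 and 12.01 in the line labelled Snail, against 11.95 and 11.81 in vector cells (0.13 ± 0.16). These 3 genes had small positive values that did not pass, but NPM1 passed with the mean of its 3 probe sets (0.45, adjusted p = 0.019). POLR1B had 9.46 and 9.65 in the line labelled Snail, against 9.86 and 9.73 in vector cells (-0.24 ± 0.14). POLR1C had 8.54 and 8.81 in the line labelled Snail, against 8.76 and 8.54 in vector cells (0.03 ± 0.16). UBTF had 7.81 and 7.85 in the line labelled Snail, against 8.09 and 8.02 in vector cells (-0.22 ± 0.12). POLR1B, POLR1C and UBTF did not pass the test. In the other lists, 7 of 47 large subunit factors were lower and 0 higher. Of 48 small subunit factors 2 were higher and 4 lower. Of 17 other genes of RNA polymerase I and its factors 1 was higher and 4 lower, and of 13 exosome genes 3 were higher and 1 lower. Of 11 other snoRNP genes 1 was higher and 0 lower, and of 52 cytoplasmic ribosomal protein genes 2 were higher and 0 lower. Of all genes 8.91% were higher and 7.34% lower.

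The change in spheres was set against the change in the line labelled Snail by testing their difference. It passed the test upward for 9 of 35 members (25.7%), where 10.6% of all genes did, and downward for 3 (8.57%), where 16.9% of all genes did. By sign alone, 23 were positive and 12 negative, with a median of 0.39 against 0.03 for all genes. LTV1 differed by 1.59 ± 0.25 (adjusted p = 0.001), PNO1 by 1.45 ± 0.23 and RRP12 by 1.39 ± 0.25. NOP16 differed by 1.22 ± 0.23, RRS1 by 1.15 ± 0.23 and BYSL by 1.15 ± 0.22. The 3 others that passed upward were POLR1C, NOP2 and GAR1. With the mean of a gene's probe sets the differences of RRP12 (0.40, adjusted p = 0.072), NOP16 (0.53, adjusted p = 0.065) and WDR12 (-0.30, adjusted p = 0.27) no longer passed. That of GAR1 was lost in every fit without 1 array except the one without parental array 1. WDR12 (-0.85 ± 0.21), FBL (-0.79 ± 0.21) and NPM1 (-0.57 ± 0.17) differed in the other direction. UTP15, UTP20 and NIP7, which rose in spheres, did not pass here, with 0.47 ± 0.26, 0.22 ± 0.22 and 0.38 ± 0.20. The count of differences that passed upward was 16 without parental array 1. The count downward was 5 without parental array 2, 1 without sphere array 1 or Snail array 2, and 0 without vector array 2. The median was 0.24 without parental array 2.

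More members passed between the 2 cell lines than between the groups of either line. SW480 vector cells against HT29 parental cells had 21 of 35 members higher (60%), where 22.6% of all genes were, and 3 lower (8.57%), where 23.5% of all genes were. The median was 0.57, against 0.07 for all genes, and was 0.89 without parental array 1 and 0.38 without parental array 2. Cell line, vector and handling cannot be told apart in it. Other measures moved with it: 11 of 20 cell division genes were higher and 1 lower (median 0.46), and MYC was higher by 0.97 ± 0.15. The summed linear level of the 13 markers of other cell types was 805 to 865 in vector cells and 7966 to 8228 in parental cells, with 2 higher and 2 lower. LYZ makes up most of the parental sum, and the markers' median change was 0.05. The 3′ minus 5′ signal of ACTB, a measure of RNA integrity, averaged 0.15 ± 0.05 in vector cells and 0.62 ± 0.05 in parental cells (SD, n = 2 each). That of GAPDH differed less, with 0.14 ± 0.01 in vector cells and 0.19 ± 0.06 in parental cells. The spike-in control BioC averaged 9.90 ± 0.16 in vector cells and 8.37 ± 0.03 in parental cells. In the same order BioB averaged 8.62 and 8.41, BioD 11.34 and 11.34, and Cre 13.08 and 13.18. Upper quartiles of the arrays ran from 7.40 to 7.43 in vector cells and from 7.58 to 7.59 in parental cells. The part of all these measures in the members' differences was not tested. All 9 measured large subunit factors were higher, between 0.39 for NIP7 and 1.49 for NOP16, but 4 of these calls (PES1, WDR12, NIP7 and MRTO4) were lost under at least 1 alternative. PES1 had 0.06 and NIP7 0.21 with the mean of their probe sets, and WDR12 had 0.24 and MRTO4 0.28 without parental array 2. Small subunit factors had 6 higher and 2 lower of 13, and RNA polymerase I genes 3 higher and 1 lower of 5.

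TSR1 had 10.59 and 10.52 in vector cells, against 8.90 and 8.01 in parental cells, or 4.30-fold (2.10 ± 0.23, adjusted p = 3.1e-05). PNO1 had 10.70 and 10.71 in vector cells, against 9.39 and 8.89 in parental cells (1.57 ± 0.16). NOP16 had 11.22 on both vector arrays, against 9.97 and 9.49 in parental cells (1.49 ± 0.16). In each of the 3 the vector arrays nearly coincided and stood above both parental arrays. RRP1B, a nucleolar partner of large subunit precursors, had 11.16 and 11.06 in vector cells, against 9.84 and 9.52 in parental cells (1.43 ± 0.14). GAR1 had 10.85 and 10.91 in vector cells, against 9.76 and 9.40 in parental cells (1.30 ± 0.15). UTP20 had 8.21 and 8.08 in vector cells, against 7.13 and 6.69 in parental cells (1.24 ± 0.15). POLR1A (1.13 ± 0.14) and POLR1B (0.97 ± 0.14) were higher too, and UBTF (0.55 ± 0.12) likewise. With the mean of the probe sets POLR1A (0.31, adjusted p = 0.093), UBTF (0.31, adjusted p = 0.093) and RRP12 (0.15, adjusted p = 0.27) no longer passed. The 3 probe sets of POLR1A gave 1.13, 0.47 and -0.65.

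RRN3 was lower, with 8.70 and 8.90 in vector cells, against 9.85 and 9.46 in parental cells (-0.85 ± 0.16, adjusted p = 0.0014). NOB1 was lower, with 9.80 and 9.88 in vector cells, against 10.57 and 10.70 in parental cells (-0.79 ± 0.13). NOP14, a processome component, had 8.20 and 8.16 in vector cells, against 8.99 and 8.55 in parental cells (-0.59 ± 0.15). Within RNA polymerase I transcription the initiation factor RRN3 was thus lower and POLR1B higher. FBL (-0.01 ± 0.15), NPM1 (0.00 ± 0.12), NCL (0.18 ± 0.16) and POLR1C (0.08 ± 0.16) did not pass.

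This comparison and that of the spheres share the parental arrays, so their values are only set side by side. PNO1 had 1.25 in spheres and 1.57 in vector cells, and NOP16 had 1.09 and 1.49. TSR1 had 0.35 in spheres and 2.10 in vector cells. WDR12 had -0.64 in spheres and 0.44 in vector cells, and RRP1B had -0.30 and 1.43. Over the 4 groups, the lowest mean was that of HT29 parental cells for 20 members, of spheres for 10, of vector cells for 5 and of the line labelled Snail for 0. The highest was in vector cells for 13, in the line labelled Snail for 12, in spheres for 8 and in HT29 parental cells for 2. No share of all genes stands beside these counts, so they are not read as a result about the members. The parental mean also includes array 2, which was lower than array 1 for 34 members.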

How the data were processed

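The deposited values are log2 expression values, made by the authors using RMA according to the submitters' processing notes, for 54675 probe sets on 8 arrays. RMA's version is not given in the sources used here. No scaling was added. Probe sets were named through GEO's platform annotation: 41091 named 1 gene, 1801 several, 11721 none and 62 were controls. The brightest probe set per gene was kept.

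Genes were tested with limma 3.58.1 in R 4.3.3, with 1 mean per group over all 8 arrays (4 residual and 6.1 prior degrees of freedom), two-sided, with Benjamini-Hochberg adjustment over 19775 genes and a threshold of 0.05. The script was tested on simulated data. Values are given per array, and changes ± SE from limma. The number of arrays limits the precision: an exact permutation test of 2 against 2 arrays cannot go below 0.333, so none was used. Same-numbered arrays did not deviate together (correlations of -0.06 to 0.06 over genes), so no pairing was assumed. The members and all lists were chosen with earlier results of these data known, and the 1.25-fold limit for the parental pair after its values were seen.

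Values on every array are given for NCL, NPM1, FBL, POLR1A, POLR1B, POLR1C, RRN3 and UBTF. Values on the arrays compared, not on every array, are given for further members. These are up to 6 members per direction with the largest called change between 2 groups, the 3 least changed in spheres and the 3 with the largest parental difference. Non-members named are SNAI1, MYC, cell type markers and up to 2 genes per list and direction. RRS1, NIP7, UTP15, PES1 and others outside this rule are given by their changes or beside a partner. Alternatives tried were the mean of a gene's probe sets, a filter on the dimmest 40% of genes, quantile normalisation, each line alone, array weights, the replicate number as a block and leaving out each array.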

Additional observations from a re-analysis of the deposited data

Results flagged for a closer look

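Signals outside the gene table stood out where they were above those of the control arrays. In SW480, the control probe sets for 18S ribosomal RNA averaged 6.75 ± 0.21 on the arrays labelled Snail and 5.35 ± 0.26 on the vector arrays (SD, n = 2 each), a difference of 1.40 (log2). Those for 28S ribosomal RNA averaged 8.58 ± 0.10 on the arrays labelled Snail and 7.63 ± 0.18 on the vector arrays, a difference of 0.94. Neither was tested. The spike-in controls BioB, BioC, BioD and Cre were lower on the arrays labelled Snail, by differences of -0.34, -0.39, -0.46 and -0.27, while the members' median change in that comparison was 0.01.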

How the results depend on the processing

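Of the 12 members higher in spheres, 10 remained so under all 14 alternatives (all but GAR1 and UTP20), and of the 4 lower, FBL alone did. Of 21 members higher in vector than in parental cells 13 remained under all 13 alternatives (not POLR1A, UBTF, UTP4, RRP12, PES1, WDR12, NIP7 and MRTO4), and of 3 lower, RRN3 and NOB1. Of 9 differences between the sphere and Snail changes that passed upward 6 remained (all but RRP12, NOP16 and GAR1), and of 3 downward 0. Lower members in spheres numbered 2 after quantile normalisation and 2 with each line fitted alone. For the line labelled Snail, the mean of a gene's probe sets gave 2 higher and 1 lower, array weights 2 higher, and each line alone 4 lower, and POLR1A turned to 0.15 with the mean of its probe sets. Leaving out 1 array at a time gave 1 to 7 lower members and medians of -0.01 to 0.44 in spheres, 0 to 2 higher and 0 to 4 lower members for the line labelled Snail, medians of 0.38 to 0.89 for vector against parental cells, and 8 to 16 differences passing upward and 0 to 5 downward. With a replicate block, a step the pairing check did not call for, spheres had 12 higher and 3 lower members, the line labelled Snail 1 and 2, vector cells 21 and 3, and the difference 8 and 3. The causes of these shifts were not tested, except that fits leaving out an array hold fewer samples. With 2 arrays a group, small changes may be missed, and no detection call was available, so low values are not read as absence.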
